A study of Mus musculus with 2 samples.

Results

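Meningeal and perivascular fibroblasts, the collagen-making cells of the pia and of the sheath around brain vessels, were 94 of the 12395 cells that passed filtering (0.758%). A barcode was a member when *Dcn*, *Lum*, *Col1a1* and *Col1a2* together gave at least 6 UMIs (unique molecular identifiers, 1 per captured transcript). It also had to hold at most 2 UMIs over the pericyte genes *Kcnj8*, *Abcc9* and *Rgs5*, at most 2 over the endothelial genes *Cldn5* and *Flt1*, at most 2 over the microglial genes *C1qa* and *C1qb*, at most 1 over the oligodendrocyte genes *Mog* and *Mag*, and 0 over the neuronal genes *Slc32a1* and *Slc17a6*. Members were thus chosen by the measured UMI counts of those genes in the same cells, and for every other gene the difference between members and remaining cells is given as a description, without a test.

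Cells came from the ventral parafacial region, a strip of brainstem beneath the ventral surface that was cut from slices and dissociated with a protease. The untreated library, labelled WT, held 8 pooled C57BL6/J mice aged 10 days (4 male, 4 female) and was batch 1. Per the study's methods the mice of both libraries were wild type. The 4OH-tamoxifen library held 8 further pooled mice of that strain, age and sex ratio, given 0.2 mg per day for 3 days, and was batch 2. With 1 library per condition, treatment, batch and mice cannot be told apart, no test between libraries was possible, and every interval below covers counting error only.

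Brain fibroblasts build the fibrous matrix of the pia, arachnoid and dura and of the space around larger vessels. They are known for fibrillar collagens and small leucine-rich proteoglycans, for retinoic acid and growth factors released towards the developing brain, and for solute carriers that exchange organic molecules with cerebrospinal fluid. Pericytes, which lie on the capillary wall within the basement membrane, are the neighbouring mural cells that most resemble them, and both types carry *Pdgfrb* and *Vtn*.

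The untreated library gave 46 fibroblasts among 3345 cells (1.38%, 95% Clopper-Pearson interval 1.01 to 1.83) and the 4OH-tamoxifen library 48 among 9050 (0.530%, 0.391 to 0.703). The counting intervals of these shares did not overlap. The shares of pericytes (2.24% and 0.972%), endothelial cells (4.69% and 2.28%) and microglia (9.96% and 6.83%) were likewise higher in the untreated library. Untreated fibroblasts held 3640 UMIs and 1603.5 genes at the median, and 4OH-tamoxifen fibroblasts 2256 UMIs and 1161.5 genes. All barcodes of the untreated library had a median of 3455 UMIs, against 2316 in the other library, so the deeper fibroblasts came from the deeper library. Levels below are UMIs of a gene per 1000000 UMIs (CPM), summed over the cells of a class, from 188281 UMIs in untreated and 120481 in 4OH-tamoxifen fibroblasts. UMI counts were not scaled by transcript length, so each level is compared between cells and not between genes. Of the barcode sequences, 40 occurred in both libraries, and 0 of the members carried one of them. Of the 54 members with a UMI of *Xist* or of a Y-linked gene, 0 held both kinds, and the other 40 members had neither and give no such reading. The reading bears on droplets that join cells of different sex only.

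The 4 rule genes summed to a median of 33 UMIs per member, with a range of 6 to 325. The median was 40.5 UMIs in untreated and 26 in 4OH-tamoxifen members, and 76 of the 94 had at least 20. Around the limit, 2 cells had 6 such UMIs, 3 had 8 and 2 had 9, while 2 cells had 5 and 5 cells had 4. Of the 115 barcodes with at least 6, the limits on other cell types left out 21, most often the oligodendrocyte limit (10) and the microglial limit (6). Few cells thus lay near the boundary.

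*Col1a1* and *Col1a2*, the chains of type I collagen, stood at 4748 and 4667 CPM, and *Dcn* and *Lum*, proteoglycans that coat collagen fibrils, at 2419 and 1124 CPM. Members held *Col1a2* in 100% of cells, *Col1a1* in 98.9%, *Dcn* in 91.5% and *Lum* in 77.7%. Pericytes, taken as cells with at least 6 UMIs over *Kcnj8*, *Abcc9* and *Rgs5* and at most 2 over the fibroblast genes, had 2.66 CPM of *Col1a1*, 248 CPM of *Col1a2*, and 0 UMIs of *Dcn* and *Lum*, levels that this limit holds down. *Col1a1* lies on chr11:94936224-94953042, *Col1a2* on chr6:4504814-4541544, and *Dcn* and *Lum* lie near each other on chr10:97479609-97518143 and chr10:97565128-97572703, all on the plus strand of GRCm38.

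The label was compared with marker lists of the meningeal layers. Of 9 pial genes, 8 reached 50 CPM, and all 8 were at least 2-fold higher in the fibroblasts than in all other cells, where 13.0% of the 4087 genes compared were at least 2-fold higher and 19.6% at least 2-fold lower. Of 9 perivascular fibroblast genes, 8 reached that level and all 8 were higher. Both lists include genes that mark fibroblasts in general, and the rule fixed the direction of such genes. Of the 12 arachnoid genes, 4 reached 50 CPM in fibroblasts or in all other cells. *Aldh1a2* (107 CPM), *Wnt6* (55.1) and *Angptl2* (143) were at least 2-fold higher in fibroblasts, and *Cldn11*, which oligodendrocytes also make, was lower (201 CPM against 2245). Of the remaining arachnoid genes, *Slc47a1*, *Cdh1*, *Krt8* and *Krt18* gave 0 UMIs, which allows up to 9.72 CPM (3 UMIs in all members). Among the 9 dural genes, *Mgp*, *Foxp1* and *Fxyd5* were found and the other 6 had at most 2 UMIs. *Mgp*, an inhibitor of calcification, had 221 UMIs, of which 1 cell held 123. The position of a cell on the brain surface or on a vessel was not recorded, so pial and perivascular members cannot be told apart by place.

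Beyond the rule genes, 25 leading genes were taken by their fold over all other cells, among genes with at least 200 CPM in members and found in at least 20% of members of each library. Several of them encode matrix proteins. *Col3a1*, the chain of type III collagen, reached 4359 CPM in fibroblasts, 232 in pericytes, 5.46 in endothelial cells and 12.3 in all other cells together, and was found in 97.9% of members. Per cell it ranged from 1.47 to 140 UMIs per 10000 in untreated members (median 40.0) and from 0 to 122 in 4OH-tamoxifen members (median 35.5). The ranges of both libraries covered each other almost fully. *Mfap4*, which encodes a microfibril-associated protein (chr11:61485431-61488900, plus strand), reached 1723 CPM against 2.66 in pericytes and 2.71 in all other cells. *Mfap4* was found in 72.3% of members. *Col15a1*, a collagen of the outer basement membrane zone, had 819 CPM against 3.03 in other cells. *Col6a1*, a chain of microfibrillar type VI collagen, had 781 CPM and 0 UMIs in pericytes. *Pcolce*, which speeds removal of the procollagen C-propeptide, had 862 CPM against 120 in pericytes. The remaining leading matrix genes were *Col18a1*, *Col6a2*, *Bgn*, *Fbln2*, *Tgfbi* and *Itih5*, the last at 1244 CPM against 168 in pericytes.

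**Figure D1:**
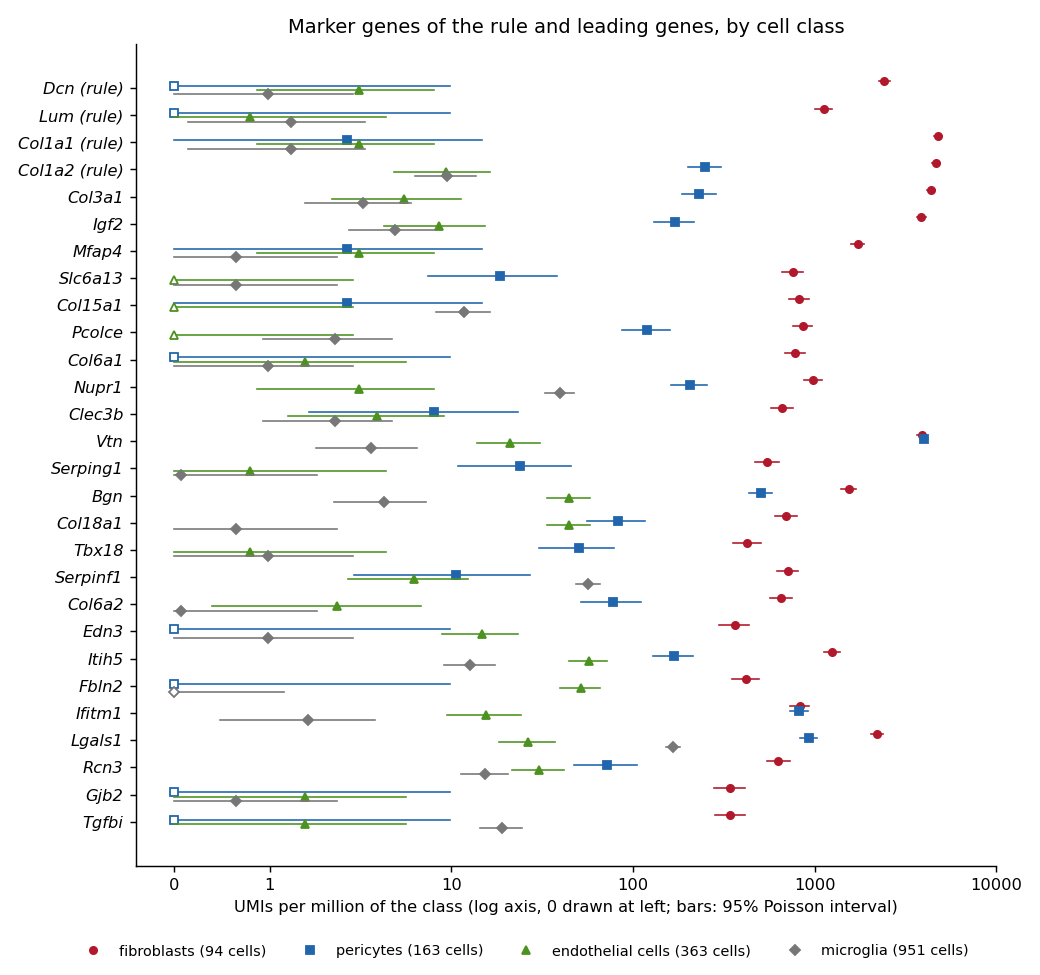
Levels in CPM (log axis, 0 drawn at the left) of the 4 rule genes and the leading genes in 94 fibroblasts, 163 pericytes, 363 endothelial cells and 951 microglia, with bars for 95% Poisson intervals and open symbols for 0 UMIs. *Col3a1* stands at 4359 CPM in fibroblasts and 232 in pericytes, while the symbols of both classes nearly coincide for *Vtn* and *Ifitm1*.

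Leading genes outside the matrix included secreted factors, a transporter and a transcription factor. *Igf2*, an imprinted fetal growth factor, had 3854 CPM in fibroblasts, 170 in pericytes and 14.0 in all other cells. *Igf2* spanned 0 to 94.7 UMIs per 10000 in untreated cells (median 34.5) and 0 to 116 in 4OH-tamoxifen cells (median 27.96), so the libraries overlapped. *Slc6a13*, the GABA and taurine transporter GAT2, had 758 CPM against 18.6 in pericytes and 1.54 in other cells. *Tbx18*, a T-box factor of mural and mesothelial lineages, had 424 CPM and was also present in pericytes at 50.6. *Edn3*, which encodes endothelin 3, had 363 CPM and 0 UMIs in pericytes. The others included *Nupr1*, *Clec3b*, *Serping1* (the C1 inhibitor), *Serpinf1*, *Ifitm1*, *Lgals1*, *Rcn3*, *Gjb2* (connexin 26) and *Vtn*. Over the 25 leading genes, the fold against all other cells, after adding 10 CPM to both levels, ran from 27.4 for *Tgfbi* to 196 for *Col3a1*. *Ptgds* had a larger fold, 267, but was found in 16.7% of 4OH-tamoxifen members and so fell outside this set. *Vtn* and *Ifitm1* were not particular to fibroblasts, since pericytes had 3994 CPM of *Vtn* (fibroblasts 3893) and 817 CPM of *Ifitm1* (fibroblasts 826).

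For 4 genes that the account turns on, the 120 bases before the RefSeq transcription start on GRCm38.p6 are shown so that their letters can be compared. They were the abundant collagen genes *Col1a2* and *Col3a1*, and *Ptgds* and *Aldh1a2*, which were unevenly spread among the members. Capitals mark CCAAT or TATAAA, and the search covered TATAAA as well as CCAAT and GGGCGG on both strands. They lie at chr6:4505498-4505617 (plus), chr1:45311418-45311537 (plus), chr2:25469750-25469869 (minus) and chr9:71215669-71215788 (plus), in that order.
Col1a2: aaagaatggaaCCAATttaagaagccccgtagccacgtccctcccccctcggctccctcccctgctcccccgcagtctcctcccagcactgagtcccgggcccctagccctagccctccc
Col3a1: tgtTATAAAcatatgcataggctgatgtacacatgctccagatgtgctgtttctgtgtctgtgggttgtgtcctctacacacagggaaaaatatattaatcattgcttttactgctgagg
Ptgds: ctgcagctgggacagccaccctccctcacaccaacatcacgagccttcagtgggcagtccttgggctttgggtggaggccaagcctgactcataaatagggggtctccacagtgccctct
Aldh1a2: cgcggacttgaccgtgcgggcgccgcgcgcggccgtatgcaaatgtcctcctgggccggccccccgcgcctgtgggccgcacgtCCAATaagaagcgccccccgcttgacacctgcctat
*Col1a2* held CCAAT from position -109 and *Aldh1a2* from -36, counted back from the start. *Col3a1* held TATAAA from -117, and the *Ptgds* window held none of the 3 motifs. In the same window, 21.3% of 32851 RefSeq promoters held CCAAT or its complement, 6.34% held TATAAA and 26.5% held GGGCGG, so each match is a description and not a site. The *Col1a2* start used by RefSeq lies 84 bases from the nearest start in the other annotation.

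All 6 fibrillar collagen genes that reached 50 CPM were at least 2-fold higher than in all other cells, and the 8 genes of the list summed to 14387 CPM in fibroblasts, 610 in pericytes and 101 in all other cells. Among basement membrane and other collagens, 15 of 16 were higher and 1, *Col9a3*, was lower. Among small leucine-rich proteoglycans 6 of 6 were higher. Collagen processing and crosslinking genes were higher for 13 of 16, other matrix genes for 28 of 31, and proteases and their inhibitors for 7 of 11, with 0 lower in these lists. Among the matrix proteins, *Sparc*, a collagen-binding matrix glycoprotein, had 5075 CPM in fibroblasts, 3988 in endothelial cells, 3773 in microglia and 1022 in all other cells, so it was widely shared. In fibroblasts *Eln* (elastin) had 337 CPM, *Lama1* 201 and *Col13a1* 214. These shares stand beside the 13.0% of all genes, and the fibrillar and proteoglycan lists contain the rule genes.

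Secreted factors formed the second large component. Of 18 that reached 50 CPM, 15 were at least 2-fold higher than in all other cells and 1, *Pdgfa*, was lower. *Ptn*, the heparin-binding growth factor pleiotrophin, had 11145 CPM in fibroblasts, 4311 in pericytes, 791 in endothelial cells, 281 in microglia and 1656 in all other cells. *Apod*, a lipid-carrying lipocalin, had 3708 CPM against 74.6 in pericytes. *Cxcl12*, the chemokine that holds *Cxcr4*-bearing cells at the meninges, had 1159 CPM, close to the 1054 CPM of endothelial cells. *Wnt5a* had 256 CPM. Of the insulin-like growth factor binding proteins 5 of 6 were higher. Among these *Igfbp2* had 4476 CPM, was found in 98.9% of members against 21.6% of microglia, and had 112 CPM in pericytes.

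Receptor genes stood out less. Of 12 compared, 6 were higher, among them *Pdgfra*, the receptor that usually marks fibroblasts, at 259 CPM in 55.3% of members and 4.10% of microglia. *Pdgfrb* stood at 185 CPM against 991 in pericytes. Among transcription factors of meninges and mesenchyme 13 of 16 were higher, including *Foxc1* (188 CPM), which is required for meningeal development, *Tbx18*, *Nr2f2* (340.1 CPM) and *Zic1*. *Zic1* had 347 CPM, and pericytes had 354. Summed over this list, fibroblasts had 2539 CPM and pericytes 2495, so as a whole it was not particular to fibroblasts. The 18 Hox genes summed to 35.6 CPM, against 37.9 in all other cells and 58.6 in pericytes, and 13 of them had 0 UMIs, which allows up to 9.72 CPM for each.

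In the retinoic acid list 5 of 6 genes were higher, with *Aldh1a1* (337 CPM), *Aldh1a2* (107 CPM) and *Cyp1b1* (204 CPM) among them. *Aldh1a1* and *Aldh1a2* encode enzymes that make retinoic acid from retinaldehyde. Of the 11 solute carriers and transporters compared, 6 were higher and 2, *Slc2a1* and *Slc16a1*, were lower. *Slc7a11*, the cystine and glutamate exchanger, had 768 CPM, *Slc22a6*, an organic anion transporter, 129.6, and *Slc13a4*, a sulfate carrier, 93.9. Junction and adhesion genes were split, with 5 of 15 higher, among them *Gjb2* and *Gjb6*, and 5 lower, among them *Cldn11* (201 CPM against 2245) and *Cdh2* (16.2 against 126). In the complement and innate immune list 6 of 9 were higher, but against pericytes 3 of 9 were, with a median fold of 1.09. In the cholesterol and lipid list *Apod*, *Lpl* and *Pltp* were higher and 5 of 12 were lower, *Hmgcs1* standing at 97.2 CPM against 769.

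**Figure D2:**
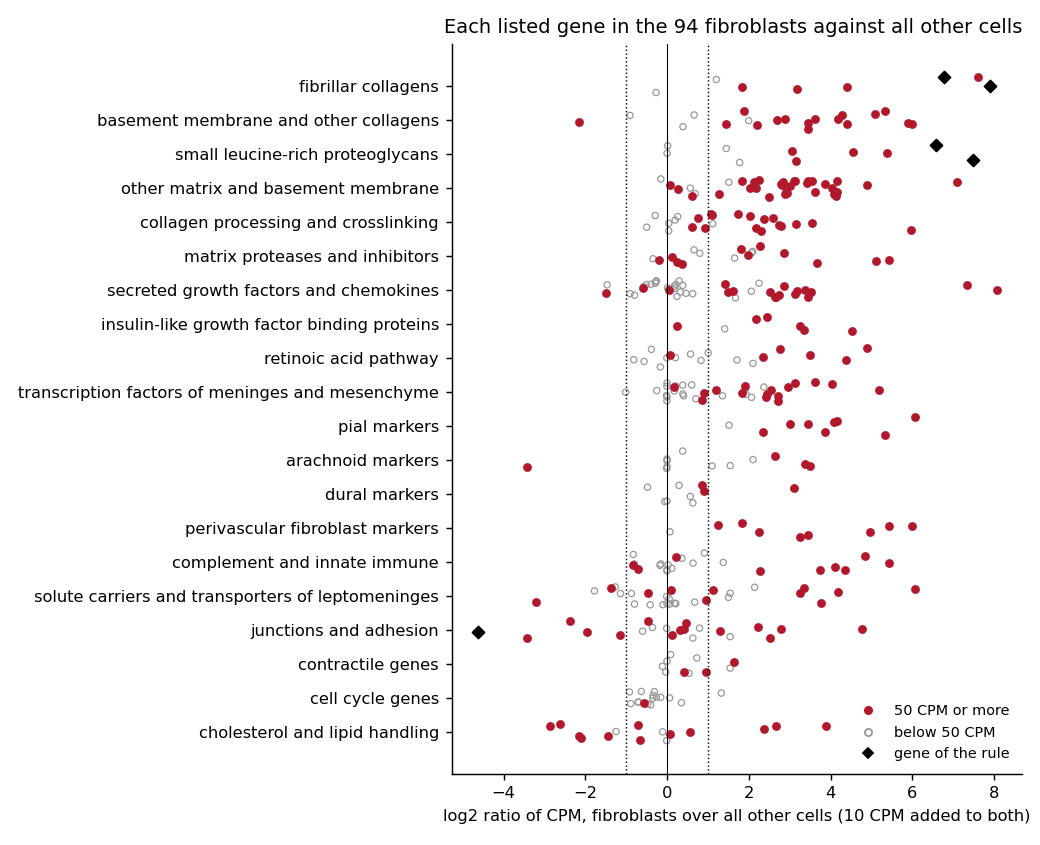
Each listed gene as a point at its log2 ratio of CPM in fibroblasts over all other cells, 10 CPM added to both, with filled points for genes of 50 CPM or more, open points below it, diamonds for genes of the rule and dotted lines at 2-fold. All 6 filled points and diamonds of the fibrillar collagens and all 8 filled pial points lie right of the upper dotted line, while junction genes and cholesterol genes lie on both sides.

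Against the 163 pericytes, 10.3% of 3843 genes were at least 2-fold higher in fibroblasts and 12.1% at least 2-fold lower. All 6 fibrillar collagens, 12 of 16 other collagens and 5 of 7 small leucine-rich proteoglycans were higher, and 1 of those 7 was lower. These counts include the rule genes *Col1a1*, *Col1a2*, *Dcn* and *Lum*, whose direction was fixed because pericytes could hold at most 2 of their UMIs. Transcription factors of meninges and mesenchyme were higher for 6 of 18 and lower for 3, and receptors higher for 7 of 16 and lower for 4. *Ptgds* differed by 413-fold (224 to 862) over both libraries, by 536-fold (246 to 1463) in the untreated and by 124-fold (47.9 to 457) in the 4OH-tamoxifen library. The pooled value rests on few cells, since 3 members held 57.0% of the *Ptgds* UMIs. *Mfap4*, with 532 UMIs against 1, differed by 647-fold with an interval of 116 to 25606. *Col6a1* was at least 97.7-fold, *Fbln2* at least 52.3-fold, *Edn3* at least 45.4-fold and *Tgfbi* at least 43.0-fold higher, each set against 3 UMIs in pericytes. *Igfbp2* was 40.0-fold (29.5 to 55.8) and *Apod* 49.7-fold (34.2 to 75.2) higher, and *Col15a1* and *Clec3b* complete the 10. In the other direction, *Mcam* and *Esam*, adhesion molecules of vessel walls, gave 0 UMIs in fibroblasts and were at least 31.5-fold and at least 26.6-fold lower, set against 3 UMIs in fibroblasts. *Higd1b* had 9.72 CPM in fibroblasts (3 UMIs) and 2471 in pericytes, and *Notch3*, the mural Notch receptor, 6.48 and 429. *Cox4i2*, *Gjc1*, *Art3*, *Gucy1a3*, *Tm4sf1* and *Mef2c* complete the 10 lower genes. Contractile genes were lower for 6 of 7, with *Cald1* at 356 CPM against 2285 and *Myl9* at 84.2 against 1757. The rule limited pericyte genes, so these differences describe the boundary it drew.

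Lists of markers of other cell types were summed in the members. The pericyte, endothelial, microglia, oligodendrocyte and neuron lists contain genes that the rule limits, which in part fixes their levels. The microglia list summed to 239.7 CPM in fibroblasts against 27157 in microglia, and to 185 against 17090 without the rule genes. The endothelial list summed to 942 against 13608, most of it from *Itm2a* (806 CPM), and the pericyte list to 4097 against 17508, most of it from *Vtn*. The oligodendrocyte list summed to 12482 CPM in fibroblasts, between the 11568 of endothelial cells and the 14146 of microglia, cell types that should lack myelin transcripts. Without *Mog* and *Mag*, which the rule limits, the sums were 12398, 11504 and 14062. The Schwann cell list summed to 1370 CPM in fibroblasts, 1707 in pericytes, 1227 in endothelial cells, 1331 in microglia and 16680 in all other cells, so fibroblasts lay within the range of the other non-neural classes. The ependymal and choroid plexus list summed to 389 CPM in fibroblasts and 394 in pericytes, above the 86.6 of endothelial cells and the 46.4 of microglia, with a UMI in 54 of 94 members. The astrocyte list summed to 2157 CPM, and its uneven spread is described with the groups below. The cell cycle list summed to 233 CPM in fibroblasts, 780.2 in pericytes and 332 in all other cells, with a UMI in 32 of 94 members.

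Clustering of the 94 members, balanced between libraries and made without the rule genes, gave 3 groups. Group 1 held 51 cells (21 untreated, 30 4OH-tamoxifen), group 2 held 32 (21 and 11) and group 3 held 11 (4 and 7). Several genes that separate groups 1 and 2 also differed between the libraries, so the group sizes are given as composition and are not compared between libraries. The genes that lead a group are what the clustering used and are listed as its description only.

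Group 1 was led by *Spats2l*, *Igfbp7*, *Angptl2*, *Mfap4*, *Col15a1*, *Igfbp5*, *Itih5* and *Kdelr3*. *Mfap4* had 2792 CPM in group 1, 517 in group 2 and 719.8 in group 3, and was found in 94.1%, 43.8% and 54.5% of their cells. Group 2 was led by *C4b*, *Dlk1*, *Ptgds*, *Fibin*, *Ifitm1*, *Gas1*, *Aldh1a2* and *Aebp1*. *Aldh1a2* had 249.6 CPM in group 2 against 18.7 in group 1, and *Crabp2*, a retinoic acid carrier, 80.2 against 0. *Wnt6*, a secreted Wnt ligand, had 143 CPM in group 2 and 0 UMIs in group 1. *Slc7a11* had 1480.0 against 249. The genes leading group 3 included *Gm3764*, *Fgfr3*, *Slc6a11*, *Gpr37l1*, *Npas3*, *Aqp4* and *Gpm6a*. Several of these are astrocyte genes, *Aqp4*, the astrocyte water channel, standing at 1301 CPM against 99.7 in group 1 and 89.2 in group 2. The astrocyte list summed to 6368 CPM in group 3, 1446 in group 1, 1819 in group 2 and 1690 in microglia, and the part of droplets with more than 1 cell was not settled. The doublet caller Scrublet marked 1 of 11 cells of group 3, 2 of 32 of group 2 and 0 of 51 of group 1, but it marked 0.159% of untreated barcodes, too few for it to have worked there. Group 3 also had the fewest rule-gene UMIs, with a median of 19 against 39 in group 1 and 31 in group 2.

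The rule genes were kept out of the clustering, and their levels differed between the groups. *Lum* had 1676 CPM in group 1 and 553 in group 2, a ratio of 3.03 (2.29 to 4.06). *Dcn* had 3253 and 1739 CPM, a ratio of 1.87 (1.58 to 2.22), but 1 cell held 153 of its 747 UMIs. *Col1a1* differed by 1.44 (1.29 to 1.61) and *Col1a2* by 1.47 (1.31 to 1.66). Within the untreated library *Lum* stood at 2259 CPM in group 1 and 531 in group 2, and within the 4OH-tamoxifen library at 1027 and 627. *Dcn* in the 4OH-tamoxifen library stood at 1659 and 1567 CPM, nearly level between the groups. Cells of a group share their libraries and are not replicates, so no test was made.

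**Figure D3:**
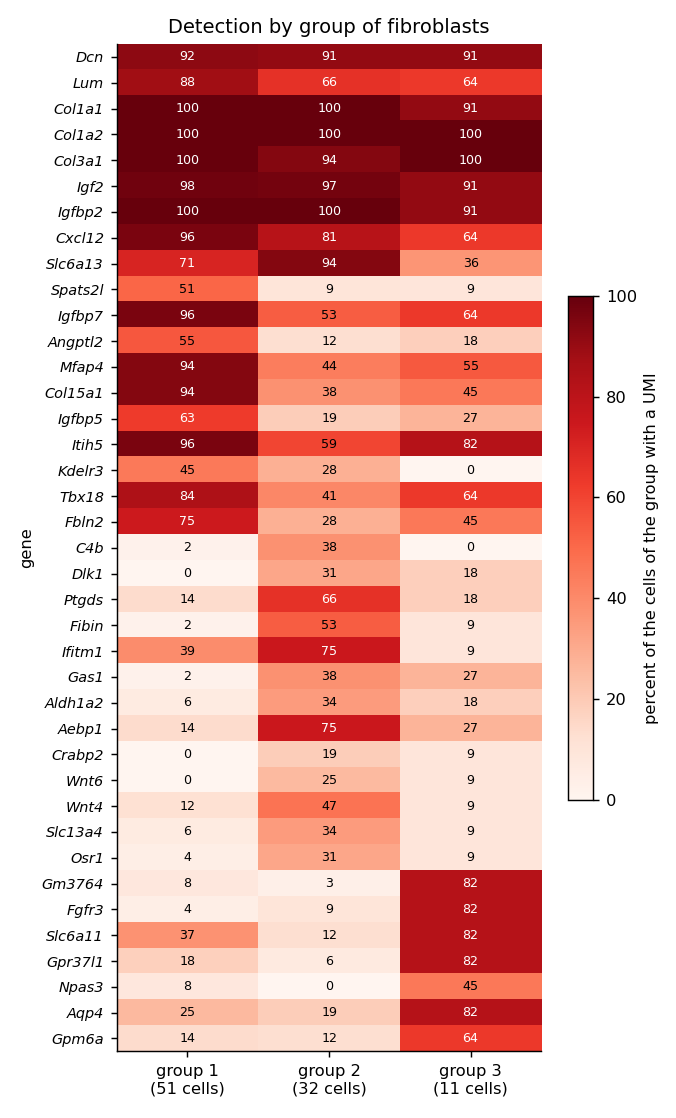
Percent of the cells of group 1 (51 cells), group 2 (32) and group 3 (11) with a UMI of each gene, as colour and number. *Mfap4* was found in 94.1% of group 1, 43.8% of group 2 and 54.5% of group 3, *Ptgds* in 13.7%, 65.6% and 18.2%, and the type I collagen genes in nearly every cell of each group.

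*Ptgds*, which encodes prostaglandin D synthase of the leptomeninges, was unevenly spread among the members. It reached 10999 CPM over all members but was found in 31.9% of them. Per cell the median was 0 in both libraries, and the highest cell had 1391 UMIs per 10000 (untreated) or 967 (4OH-tamoxifen). At least 10 UMIs were found in 15 cells, of which 11 were untreated and 4 were from the 4OH-tamoxifen library. These cells held 99.1% of *Ptgds* UMIs in untreated and 97.0% in 4OH-tamoxifen members, and 13 of the 15 lay in group 2, 2 in group 3 and 0 in group 1. *Mfap4* gave 0 UMIs in 12 of the 15, whereas 52 of the 64 members without a *Ptgds* UMI had *Mfap4*. The top 3 cells of each library held 63.3% and 84.2% of its *Ptgds* UMIs, so the level of a library rests on a few cells.

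**Figure D4:**
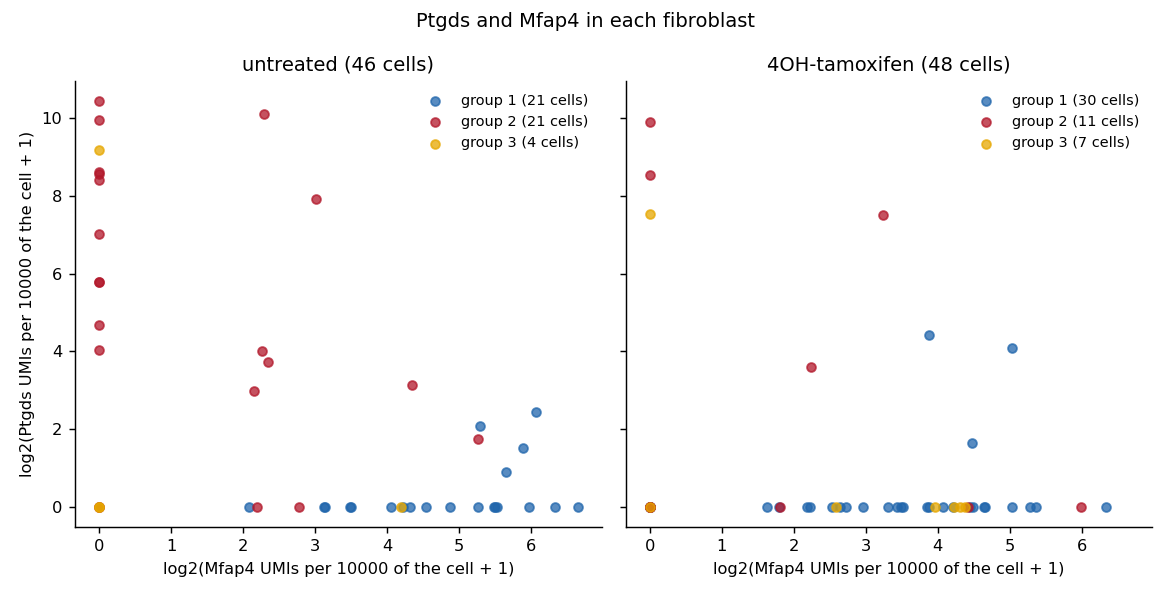
*Ptgds* (y axis) against *Mfap4* (x axis) in each fibroblast, as log2 of UMIs per 10000 UMIs of the cell plus 1, for 46 untreated (left) and 48 4OH-tamoxifen cells (right), coloured by group. The cells with most *Ptgds* are of groups 2 and 3 and mostly lie at 0 for *Mfap4*. Most group 1 cells lie along the bottom, and 7 of the 51 hold a *Ptgds* UMI, at most 20.6 per 10000.

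Between the libraries, 9.59% of 3554 genes were at least 2-fold higher in untreated and 7.96% at least 2-fold higher in 4OH-tamoxifen fibroblasts. The dural list had 3 of 3 genes higher in untreated, the arachnoid list 3 of 5, the complement and innate immune list 5 of 10, the retinoic acid list 4 of 8 and the secreted factors 8 of 21, with 1 complement gene higher in 4OH-tamoxifen members and 0 in the other lists. The dural count includes *Mgp*, whose ratio leans on 1 untreated cell with 123 UMIs, while no 4OH-tamoxifen cell held more than 5. Of the matrix lists, 0 of 6 fibrillar collagens, 1 of 16 other collagens, 1 of 6 small leucine-rich proteoglycans, 1 of 16 collagen processing genes and 2 of 13 proteases and inhibitors were higher in untreated members, and 0 in the other direction. Of 32 other matrix genes, 4 were higher in untreated and 2 in 4OH-tamoxifen members. None of the 8 pial genes was past 2-fold in either direction. *Col1a1* had 4955 CPM in untreated and 4424 in 4OH-tamoxifen members, a ratio of 1.12 (1.01 to 1.25), and *Col1a2* 4493 and 4939, a ratio of 0.910 (0.818 to 1.01). *Igf2* and *Cxcl12* had ratios of 0.943 (0.839 to 1.06) and 0.962 (0.775 to 1.20), with intervals that include 1. *Dcn* had 2979.6 CPM in untreated and 1544 in 4OH-tamoxifen members, a ratio of 1.93 (1.63 to 2.29), with the cell of 153 UMIs on the untreated side, and *Lum* 1285 and 872, a ratio of 1.47 (1.17 to 1.87). *Vtn* differed by 2.06 (1.80 to 2.36), at 4870 and 2366 CPM.

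The genes higher in untreated fibroblasts included several that lead group 2. *Ptgds* had 16252 CPM in untreated and 2789 in 4OH-tamoxifen fibroblasts, a ratio of 5.83 (5.21 to 6.54), and other cells had 72.9 and 9.32. *Ifitm1*, an interferon-inducible membrane protein, had 1200.3 CPM and 241, a ratio of 4.99 (3.38 to 7.62). *Aldh1a2* gave 31 UMIs against 2 between the libraries, a ratio of 9.92 (2.52 to 85.5). *Gjb2* had 489 and 108 CPM, a ratio of 4.53 (2.52 to 8.83). A UMI of *Aldh1a2*, *Crabp2* or *Wnt6* was found in 17 of 46 untreated cells, 13 of them in group 2, and in 3 of 48 4OH-tamoxifen cells, 2 of them in group 2. Within group 2, *Ptgds* stood at 30737 CPM in untreated and 11011 in 4OH-tamoxifen cells and *Ifitm1* at 2355 and 549. Both genes lead group 2 and were among the genes that formed the groups, so the split itself leaves few of their UMIs in group 1. Group 1 held 4 and 7 UMIs of *Ptgds*, a ratio of 0.513 (0.110 to 2.02), and 15 and 15 of *Ifitm1*, a ratio of 0.898 (0.409 to 1.97). Both intervals include 1 and are wide, and whether the groups differ was not tested. Among the 18 members with fewer than 3 UMIs over a list of astrocyte and oligodendrocyte-lineage genes, the log2 ratio of *Ptgds* turned to -4.56. *Gjb2* was higher in untreated cells within group 1 (331 and 92.2 CPM) and within group 2 (716 and 196).

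Immediate early genes, which are transcribed within minutes of a stimulus, also stood on the untreated side. Of the 13 immediate early genes compared, 11 were higher in untreated fibroblasts and 0 in 4OH-tamoxifen. *Junb*, an AP-1 subunit, had 499 and 66.4 CPM, a ratio of 7.52 (3.66 to 17.9), and *Fosb* 212 and 24.9, a ratio of 8.53 (2.72 to 43.1). *Fos* had 414 and 133 CPM, *Jun* 542 and 191, and *Egr1* 266 and 49.8. The list summed to 3564 and 1228 CPM in fibroblasts, and in all other cells to 1789.9 and 876, so other cells of the untreated library also carried more. *Junb* was higher in untreated cells within group 1 (378 and 65.9 CPM) and within group 2 (623 and 118). *Hspb1*, a small heat shock protein, gave 38 UMIs in untreated and 0 in 4OH-tamoxifen members, at least 8.11-fold higher, while other cells had 53.2 and 33.5 CPM. *Itm2a* (3.91, 2.73 to 5.77), *Cxadr* (18 and 0 UMIs, at least 3.84-fold) and *Tsc22d1* (3.73, 2.38 to 6.08) complete the named genes on this side. The part of dissociation, batch and drug in these differences cannot be told apart.

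In the 4OH-tamoxifen library the metallothioneins, which bind zinc and copper, were higher. *Mt1* had 1078 CPM in untreated and 2756 in 4OH-tamoxifen fibroblasts, a ratio of 2.56 (2.14 to 3.06), and *Mt2* 351 and 896, a ratio of 2.56 (1.87 to 3.53). All other cells had 1476 and 2483 CPM of *Mt1* and 501 and 820.2 of *Mt2*, in the same direction. Without the 11 cells of group 3 the levels were 976 and 1853 CPM of *Mt1*, a ratio of 1.90 (1.53 to 2.35), and 298 and 562 of *Mt2*, a ratio of 1.89 (1.27 to 2.81), both under 2-fold and near the 1.68 and 1.64 of all other cells. In group 3, where the astrocyte list was highest, *Mt1* had 2107 CPM in untreated and 7566 in 4OH-tamoxifen cells, and the part of astrocyte RNA was not tested. *Mt1* was higher within group 1 (875 and 1831) and within group 2 (1073 and 1920.1) too. The other named genes on this side rest on few UMIs. *Tff3*, a trefoil factor, had 3 and 17 UMIs (ratio 8.86, 2.56 to 47.2), *Tnc* 0 and 7 (at least 3.65-fold) and *Mta1* 0 and 8 (at least 4.17-fold). *Strn3* and *Sel1l* had ratios of 5.73 (2.25 to 17.3) and 6.64 (2.17 to 27.1), and *Ptpn9* one of 5.31 (1.88 to 18.4). *Ifi27l2a* and *Napb* each had a ratio of 14.1 with an interval of 1.95 to 616.

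**Figure D5:**
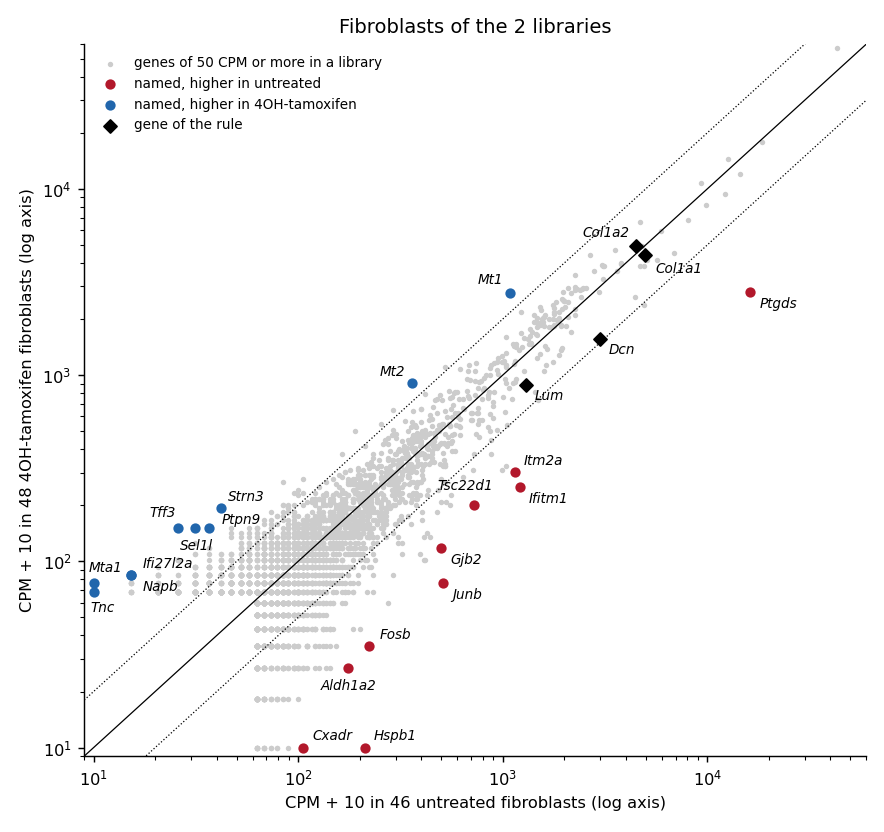
Levels in CPM plus 10 (log axes) of each gene in untreated (x axis) and 4OH-tamoxifen (y axis) fibroblasts, with a solid line of equality and dotted lines at 2-fold. *Ptgds*, *Junb* and *Hspb1* lie on the untreated side and *Mt1* and *Mt2* on the other, while *Col1a1* and *Col1a2* lie near the line.

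The untreated library was deeper per cell, so shares of cells were compared after thinning each cell to 2000 UMIs, which kept 44 untreated and 30 4OH-tamoxifen members and left out 2 and 18. *Ptgds* was then found in 40.9% and 10.0% of members, against 47.8% and 16.7% before thinning. *Junb* was found in 50% and 6.67%, *Gjb2* in 63.6% and 13.3%, *Itm2a* in 81.8% and 43.3%, and *Ifitm1* in 52.3% and 20%. *Mfap4* was found in 61.4% and 83.3%, and *Col3a1*, with 95.5% and 96.7%, was about the same. In thinned microglia, which should lack these genes other than *Junb*, the shares were 1.55% for *Ptgds*, 0.129% for *Gjb2*, 2.84% for *Itm2a*, 0.258% for *Ifitm1* and 0.129% for *Mfap4*, and 72.8% for *Junb*. *Mt1* was found in 88.6% and 96.7% of members and in 93.2% of thinned microglia, so its share separates neither library nor cell type. The shares of *Ptgds*, *Junb*, *Gjb2*, *Itm2a* and *Ifitm1* therefore differed between the libraries in the same direction at 1 common depth.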

How the data were processed

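Single-cell RNA-seq (10x v2 chemistry) was made from 2 libraries, 1 untreated and 1 given 4OH-tamoxifen. The authors deposited counts: UMIs per gene and barcode, with the submitters' processing notes naming bcl2fastq 2.18.0.12, Cell Ranger 2.2.0 and build mm10 (GRCm38). The members and all gene lists were chosen with earlier results of these data known.

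Barcodes were kept with at least 800 genes, at most 50 hemoglobin UMIs and at most 20% mitochondrial UMIs, leaving 12395 of 14008. Counts were summed per class and divided by the class total (CPM), with 95% exact Poisson intervals. Shares had Clopper-Pearson intervals and ratios exact conditional intervals. These cover counting error only. For 2-fold counts, 10 CPM was added to both levels. Against other cells and pericytes, genes with at least 50 CPM in either class entered. Between libraries a gene entered when the library with more of it reached 50 CPM and 10% of members with a UMI. A bound for a class at 0 used 3 UMIs over that class. Members were clustered on 1000 variable genes, without rule, cell cycle, immediate early, mitochondrial, ribosomal, hemoglobin and sex-linked genes, with 15 components, 5 neighbours per library and Leiden clustering at resolution 0.7.

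Named genes were the 25 with the largest ratio to all other cells (at least 200 CPM and found in at least 20% of members in each library), the 10 in each direction against pericytes (at least 200 CPM in the higher class), the 10 in each direction between libraries ranked by the ratio bound nearest to 1, the 8 leading each group, and, from 36 lists holding 511 genes (508 measured), the rule genes, those highest in fibroblasts and those in under 1% of members. Other genes given with values were chosen after their values were seen. Some genes that these rules name are not reported here.

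Doublets were not removed beyond the rule. Scrublet in scanpy 1.11.5 marked 6 of 3767 untreated barcodes (0.159%, 0 members) and 544 of 10241 4OH-tamoxifen barcodes (5.31%, 3 members). The untreated rate shows that its automatic threshold did not work in that library. Promoter sequences came from RefSeq (GRCm38.p6), with 6 of 10 genes sought matched, and gene positions from GENCODE M21. Python 3.11.15, numpy 2.4.6, scipy 1.17.1, pandas 2.3.3, scikit-learn 1.9.0 and leidenalg 0.10.2 were used. The ratio between libraries and its interval were tested on simulated Poisson library totals. Those totals had no spread between cells, so the test does not cover genes held by a few cells. Other limits on genes, mitochondria, marker UMIs, glial UMIs and doublets, thinning, other gene floors and other clustering settings were tried.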

Additional observations from a re-analysis of the deposited data

How the results depend on the processing

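The main values were 94 members, shares of 1.38% and 0.530%, 341 genes higher in untreated and 283 in 4OH-tamoxifen fibroblasts, and 533 higher and 803 lower than in all other cells. A minimum of 1200 genes left 60 members and 496 genes higher with 4OH-tamoxifen. Leaving out members with 3 or more UMIs over a list of astrocyte and oligodendrocyte-lineage genes left 18 members (0.209% and 0.122%), 1076 and 976 genes between libraries, 824 higher than in other cells, and a log2 ratio of *Ptgds* of -4.56. With *Aqp4*, *Slc1a2*, *Cspg5* and *Olig1* alone counted, an alternative chosen after seeing the data, 56 members remained (0.807% and 0.320%) with 510 genes higher with 4OH-tamoxifen. Thinning gave 586 and 715 genes, and leaving out the member with most UMIs of each gene gave 194 higher in untreated. A floor of 200 CPM gave 46 and 13 genes between libraries and 162 higher and 185 lower than in other cells. Adding 50 CPM gave 104 and 41, and 342 and 396. Within group 1, also chosen after seeing the data, the log2 ratios of *Ptgds* and *Ifitm1* were -0.83 and -0.15. Without group 3, *Mt1* and *Mt2* fell under 2-fold, and 18 of the 20 genes named between libraries remained at 2-fold. Leiden resolution 1.4 gave 6 groups. The cause of these moves was not tested. The remaining limits on cells left 72 to 101 members. The 25 leading genes stayed at least 22.9-fold above all other cells under every limit on cells tried. They were picked by that fold in largely the same members, so this is no independent support. *Cxadr* had 0 UMIs in both libraries among the 18 members, and *Tnc* after thinning and within group 2, so these gave no ratio. No paired analysis was possible because each condition had 1 library. With 120481 UMIs in 4OH-tamoxifen fibroblasts, a gene at 0 could stand at up to 24.9 CPM.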
